A study of Homo sapiens with 9 samples.

Results

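The genes of the mitochondrial respiratory chain and ATP synthase were described in WM266-4 GFP cells, a human metastatic melanoma line that carries green fluorescent protein, after transfection of a miR-199a-3p mimic. A gene was a member where its symbol begins with NDUFA, NDUFB, NDUFC, NDUFS, NDUFV, UQCR, COX4, COX5, COX6, COX7, COX8 or ATP5, or is SDHA, SDHB, SDHC or SDHD, and where a row of the array table carries that symbol alone. The table held 44629 rows, of which 15835 carried exactly 1 gene symbol, and these stood for 14812 genes. Of them 32 rows matched the rule. The row of the pseudogene UQCRBP1 was left out, and the remaining 31 rows gave 29 members, the brightest row standing for a gene with several. The choice used symbols only, and no measured value beyond the level that settled which row was kept. Cells were transfected by lipofection and harvested after 48 hours. The groups were cells given 0.5 nM miR-199a-3p mimic (n = 3), cells given 0.25 nM miR-199a-3p mimic (n = 3) and cells given 0.5 nM control microRNA (n = 3), each in biological triplicate. The GFP line and the lipofection with a small RNA were shared by all 3 groups, which differed in that RNA and its dose. The lower mimic dose had no control at its own dose, so both doses were set against the same control arrays.

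The respiratory chain passes electrons from NADH and succinate to oxygen through complexes I to IV of the inner mitochondrial membrane, and pumps protons as it does so. ATP synthase, also called complex V, lets the protons flow back and makes ATP. Most subunits are made in every cell type from nuclear genes, while several subunits of complex IV (cytochrome c oxidase) exist as pairs of a ubiquitous form and a form typical of heart and muscle, lung or testis. Dedicated assembly factors put the complexes together and are not part of them afterwards. The promoters of many of these genes are known to be bound by NRF1, by the ETS-family factor GABP and by YY1. Melanoma cells use both glycolysis and respiration, and the melanocyte factor MITF is known to raise mitochondrial biogenesis there.

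The mature strand that the mimic stands for is shown because it is the agent tested in all comparisons. It is given 5′ to 3′ from RefSeq, with its seed, bases 2 to 8, in capitals. In build GRCh38.p14 it comes from MIR199A2 at chr1:172144554-172144575 and from MIR199A1 at chr19:10817429-10817450, both on the minus strand.
hsa-miR-199a-3p: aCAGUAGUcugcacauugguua

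RNA was labelled for an Affymetrix whole-transcript array, and the deposited values were log2 signals after robust multi-array averaging. A level below is such a log2 value after each array was shifted to 1 common median, so that a difference of 1 is a doubling of signal. The array medians before the shift were 6.23 to 6.25 at 0.5 nM mimic, 6.30 to 6.31 at 0.25 nM mimic and 6.15 in controls, and the shifts ran from -0.082 to 0.080. The 3 arrays of a group held exactly the same deposited value for 46.6% of genes at 0.5 nM mimic, for 45.1% at 0.25 nM mimic and for 47.2% in controls. Where 3 arrays are equal the spread within a group is 0, so p-values that rest on it are too small; whether the groups were normalised apart is not stated in the labels. Array-level limma p-values, which rest on the spread within groups, fell under an adjusted 0.05 for 63.3% of all genes at 0.5 nM mimic and for 64.2% at 0.25 nM mimic, each against control. A second limma test used only the 3 group means, and it called 0.128% of genes. It took its error from the difference between the mimic doses, pooled strongly across genes of like level (35.9 prior degrees of freedom). The SE of a gene in that test thus mainly reflects its level. Of the values at 0.25 nM mimic in replicate 3, 19.1% had lost digits in the deposited table and were left out, which left n = 2 there for 7 members. The melanocyte markers fitted the labelled cells: 9 of 9 measured markers exceeded 6.25, the median level over genes, with TYR at 12.76 and PMEL at 12.09. Of the other markers, 5 keratinocyte genes lay between 3.31 and 5.10, the fibroblast gene DCN at 2.66, the endothelial gene VWF at 5.31 and the macrophage genes CD68 and LYZ at 9.64 and 3.22. These are bulk values, in which fewer transcripts per cell and fewer cells of a kind cannot be told apart.

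The 29 members were 4 loci named for complex I, 5 for complex III, 17 for complex IV and 3 for complex V. Protein-coding genes made up 27 of them, out of 96 protein-coding genes of the RefSeq table whose symbols match the rule. The other genes, which include the catalytic subunits of complexes I, II and V, were not analysed here. Members with a level over the genes' median numbered 19.

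Relative to the median gene of each array, most ubiquitous subunits measured lay slightly below control with the mimic, with median changes of -0.16 at 0.5 nM and -0.15 at 0.25 nM, while single members moved in both directions. The -0.15 is the value of COX6A1, whose row is uncertain and may belong to another locus, as described below. The values next to it were -0.18 for ATP5MK and -0.14 for COX7C. At 0.5 nM mimic 9 of 29 members were higher and 10 lower than control (31.0% and 34.5%), with 10 not called, against 63.3% called, 33.2% higher and 30.1% lower among all genes. At 0.25 nM mimic 6 were higher and 13 lower (20.7% and 44.8%), with 10 not called, against 64.2% called, 30.3% higher and 33.9% lower among all genes. The shares at 0.5 nM were near those of all genes, and at 0.25 nM fewer members were higher and more were lower. The median change of the members was -0.06 at 0.5 nM and -0.14 at 0.25 nM, beside 0.01 and -0.02 over all genes. When the arrays were left without the shift to a common median changes were higher by about 0.09 at 0.5 nM and 0.16 at 0.25 nM, and these member medians were 0.03 and 0.01, so the direction of the list median rested on that step. Without control replicate 1 or 2 the median at 0.5 nM was -0.0282, and without replicate 1 of the 0.25 nM group that at 0.25 nM was -0.0875. By the group-level limma test 0 of 29 members passed, the smallest adjusted p being 0.508. At an unadjusted p under 0.05 that test named 5 members, COX6A2, COX8A, COX7A2, COX6B1 and UQCRC1, beside 6.56% of all genes.

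Array by array, the members split in the following way. At 0.5 nM all arrays lay below all control arrays for 10 members and above them for 10, beside 35.0% and 39.2% of all genes. At 0.25 nM the counts were 15 below and 7 above, beside 39.3% and 35.1% of all genes. The counts of this paragraph were taken after the shift to a common median. Without it COX5A, COX6A1, COX7C and UQCRHL, counted as below here, had changes above 0 at 0.25 nM (0.10, 0.0104, 0.0139 and 0.0535). Only arrays with a value were used here. The mimic arrays of both doses all lay below all control arrays for 10 members, with 22.5% of genes as background. COX6A1, on its uncertain row, is among these members. The mimic arrays lay above all control arrays for 6 members, with 22.6% as background. At both doses 2 members, COX7B2 and COX7C, were called in opposite directions, beside 12.5% of all genes. The doses share their control arrays, so their changes are given side by side and not as 2 separate tests of a direction.

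**Figure D1:**
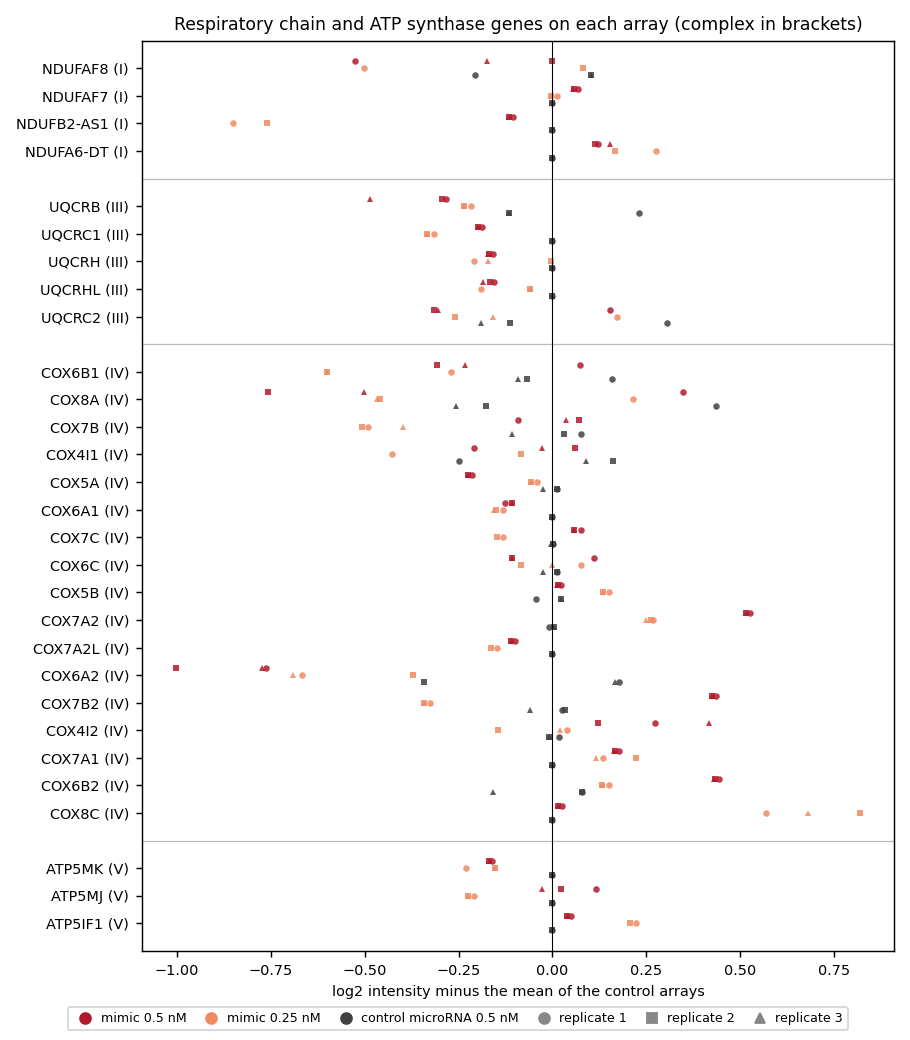
Levels of the 29 members on each array, as the difference in log2 level from the mean of the 3 control arrays; points are arrays, coloured by group and shaped by replicate number. The mimic arrays of COX6A2 lie left of its control arrays, and those of COX7A2 lie right of them at both doses.

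**Figure D2:**
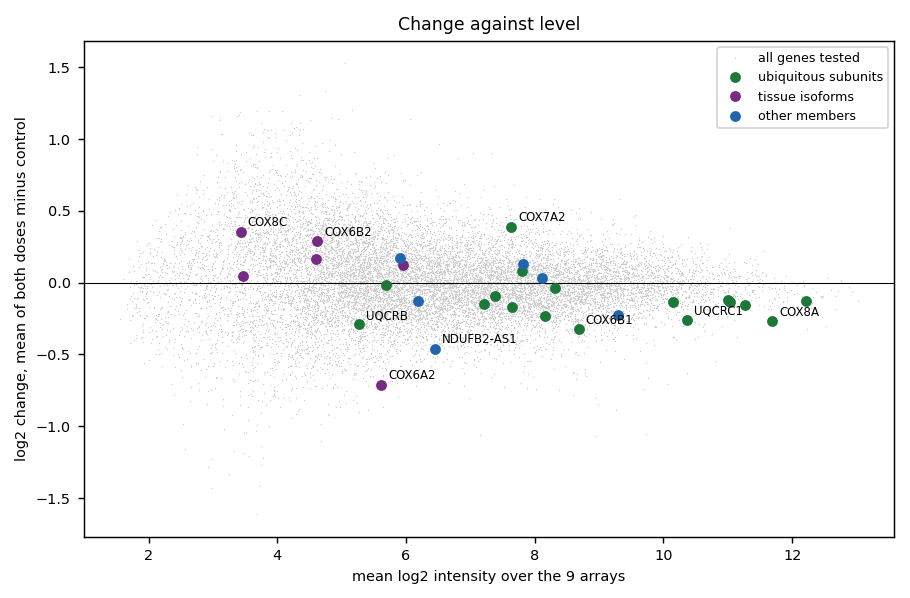
Change in log2 units, as the mean of both mimic doses minus control (vertical axis), against mean log2 level (horizontal axis). Members are drawn over all genes tested. Members above the median level of 6.25 lie mostly between -0.5 and 0.1, and the members farthest above 0 at low levels are tissue isoforms.

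Complex III passes electrons from ubiquinol to cytochrome c, and its 5 measured loci all had changes below 0 at each dose, from -0.35 to -0.16 at 0.5 nM and from -0.33 to -0.08 at 0.25 nM. At 0.5 nM 4 of 5 were called lower and 1 was not called, with a median change of -0.17, beside 30.1% of all genes lower. The 4 include UQCRH and its near-identical copy UQCRHL, whose probes may read the same transcripts, so these loci need not be separate signals. They also include UQCRB, at -0.35, whose mean level of 5.27 may lie at background. At 0.25 nM 2 were called lower and 3 not, with a median of -0.13, beside 33.9% of all genes lower, so that the share of 40.0% was near the background. None was called higher at either dose. Without the shift to a common median the medians of complex III were -0.08 and 0.03, with 1 locus called lower at each dose.

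UQCRC1, a core protein of complex III, had levels of 10.35, 10.34 and 10.34 at 0.5 nM mimic, 10.22, 10.21 and 10.21 at 0.25 nM mimic and 10.54 on each control array. The mimic arrays all lay below the control arrays, and those at 0.25 nM lay lowest. It fell by 0.19 at 0.5 nM (limma adjusted p = 5.75e-07) and by 0.33 at 0.25 nM (adjusted p = 3.53e-08), which is 0.874 and 0.797 of the control signal. Over the group means it fell by 0.26 ± 0.122 (SE), with an unadjusted p of 0.0390 and an adjusted p of 0.701. The partner core protein UQCRC2 had levels of 11.23, 10.76 and 10.77 at 0.5 nM, 11.25, 10.81 and 10.91 at 0.25 nM and 11.38, 10.96 and 10.88 in controls. The groups overlapped, and replicate 1 was the highest array in each of them. Its changes of -0.16 and -0.08 were not called (adjusted p = 0.519 and 0.732), and with the replicate number as a block only the first was (adjusted p = 0.0176 and 0.113).

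UQCRB, the ubiquinone-binding subunit, had levels of 5.18, 5.17 and 4.98 at 0.5 nM, 5.24, 5.23 and 5.23 at 0.25 nM and 5.69, 5.35 and 5.35 in controls. All mimic arrays lay below the controls, and the control spread came from replicate 1. Its mean level of 5.27 was near that of the endothelial marker VWF, 5.31, and may lie at background. UQCRB fell by 0.35 at 0.5 nM (adjusted p = 0.0174), while the change of -0.23 at 0.25 nM was not called (adjusted p = 0.0833). Without replicate 3 of the 0.5 nM group the first call was lost, with an adjusted p of 0.0566. The hinge protein gene UQCRH had a level of 7.31 on each control array, and had changes of -0.17 and -0.13 at 0.5 and 0.25 nM (adjusted p = 0.0200 and 0.0526). Its near-identical intronless copy UQCRHL had a level of 10.23 on each control array, and changed by -0.17 and -0.10 (adjusted p = 0.00371 and 0.0326). Probes on near-identical copies may pick up both transcripts, so the values of both are uncertain. The UQCRH call at 0.5 nM was lost without replicate 2 or 3 of the 0.5 nM group or of the controls (adjusted p = 0.0510 to 0.0529). It held in 11 of 17 alternative settings, with a limma adjusted p of up to 0.251. The UQCRHL call at 0.25 nM was lost without replicate 2 of the 0.5 nM group, replicate 3 of the 0.25 nM group or any control array (adjusted p = 0.0508 to 0.0760). That call held in 11 of 17 alternative settings, with a limma adjusted p of up to 0.268.

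The promoters of UQCRC1, COX6B1 and COX8A are shown because these are the ubiquitous subunits that were lower at an unadjusted p under 0.05 in the group-level test, and because their matches to the factors named above differ. Each runs 5′ to 3′ from 250 bases before to 50 after the start in the RefSeq table of build GRCh38.p14: UQCRC1 at chr3:48609597-48609896 on the minus strand, COX6B1 at chr19:35648073-35648372 on the plus strand and COX8A at chr11:63974370-63974669 on the plus strand. Capitals mark matches to the NRF1 motif, the ETS motif or the YY1 motif.
UQCRC1: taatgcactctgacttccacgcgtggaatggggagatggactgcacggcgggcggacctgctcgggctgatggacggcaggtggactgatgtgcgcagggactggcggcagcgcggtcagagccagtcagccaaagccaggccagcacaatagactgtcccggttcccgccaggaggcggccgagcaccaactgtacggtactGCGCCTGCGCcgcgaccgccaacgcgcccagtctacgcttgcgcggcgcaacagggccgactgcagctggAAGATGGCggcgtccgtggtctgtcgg
COX6B1: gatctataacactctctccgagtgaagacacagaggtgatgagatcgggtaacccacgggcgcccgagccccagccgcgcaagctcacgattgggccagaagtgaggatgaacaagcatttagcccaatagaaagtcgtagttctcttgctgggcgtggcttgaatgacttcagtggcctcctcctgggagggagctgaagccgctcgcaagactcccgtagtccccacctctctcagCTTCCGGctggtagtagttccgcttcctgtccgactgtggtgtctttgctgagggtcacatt
COX8A: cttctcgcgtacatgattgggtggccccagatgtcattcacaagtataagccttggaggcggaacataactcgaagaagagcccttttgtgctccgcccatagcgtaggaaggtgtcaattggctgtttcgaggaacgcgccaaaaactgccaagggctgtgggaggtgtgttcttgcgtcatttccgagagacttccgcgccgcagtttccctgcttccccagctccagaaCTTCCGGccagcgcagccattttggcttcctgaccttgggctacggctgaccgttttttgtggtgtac

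UQCRC1 holds an NRF1 match that begins 47 bases before the start and a YY1 match after the start. COX6B1 holds an ETS match that begins 12 bases before its start, and COX8A one that begins 18 bases before its start. The motifs searched were GCGCA, any base and GCGC for NRF1, CCGGAAG for ETS, AAGATGGC for YY1 and GGGCGG for the GC box bound by Sp1, each on both strands. The table held a promoter for 24 of 29 members and for 10736 of the tested genes. An ETS match lay in 7 of 24 member promoters (29.2%), those of ATP5MK, COX4I1, COX5B, COX6A1, COX6B1, COX8A and UQCRH, against 15.0% of tested genes. Only the ETS matches of ATP5MK overlap each other among the members. An NRF1 match lay in 3 of 24 (12.5%), those of ATP5MJ, COX8C and UQCRC1, against 8.80%. A YY1 match lay in 2 of 24 (8.33%), those of NDUFA6-DT and UQCRC1, against 4.11%, and a GC box in 14 of 24 (58.3%) against 60.5%. COX7A2, which rose at both doses, had no NRF1, ETS or YY1 match in this window. Among the ETS-bearing promoters stand genes that fell at both doses (ATP5MK, and COX6A1 on its brightest row), and COX5B, which rose at 0.25 nM. That COX6A1 row lies among rows of chromosome 6 genes, whereas the promoter searched is on chromosome 12. Its fall may thus belong to another locus. A match is a run of letters and not a measured binding site.

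Complex IV hands the electrons to oxygen, and its 17 loci moved in both directions. At 0.5 nM 6 were called higher and 4 lower (35.3% and 23.5%), beside 33.2% and 30.1% of all genes. At 0.25 nM 4 were higher and 8 lower (23.5% and 47.1%), beside 30.3% and 33.9% of all genes. The ubiquitous subunits of complexes III, IV and V together numbered 17, with UQCRH and its copy UQCRHL counted apart. Of them 15 lay above the median level, and UQCRB and COX6C lay below it. COX6A1, called lower at each dose, is counted on a row that may belong to another locus. Of the 17, 2 were higher, 7 lower and 8 not called at 0.5 nM, and 2 were higher, 9 lower and 6 not called at 0.25 nM, with median changes of -0.16 and -0.15. The shares lower were 41.2% and 52.9%, against 29.3% and 31.8% of genes above the median level, and the share higher was 11.8% at each dose, against 23.8% and 23.1%. Changes below 0 were found for 12 of the 17 at 0.5 nM and for 15 at 0.25 nM, beside 53.4% and 57.0% of genes above the median level. Without the shift to a common median 4 were higher and 4 lower at 0.5 nM, with a median of -0.07, and 4 were higher and 2 lower at 0.25 nM, with a median of 0.01. The direction at 0.25 nM therefore rested on that step, whereas quantile normalisation gave medians of -0.13 and -0.11.

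COX6B1, a subunit at the face where the paired enzyme joins, had levels of 8.97, 8.59 and 8.66 at 0.5 nM mimic, 8.62, 8.30 and 8.30 at 0.25 nM mimic and 9.06, 8.83 and 8.81 in controls. Its 0.25 nM arrays all lay below the control arrays, whereas the 0.5 nM arrays overlapped them. The change of -0.49 at 0.25 nM was called (adjusted p = 0.0154; 0.712 of the control signal). At 0.5 nM the change of -0.16 had an adjusted p of 0.357, and of 0.00790 with the replicate number as a block. The call at 0.25 nM was lost without replicate 2 or replicate 3 of the 0.25 nM group (adjusted p = 0.0531 and 0.0591).

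COX8A, the ubiquitous form of subunit 8, had levels of 12.21, 11.10 and 11.36 at 0.5 nM, 12.08, 11.40 and 11.39 at 0.25 nM and 12.30, 11.68 and 11.60 in controls. Replicate 1 stood well above replicates 2 and 3 in every group, and the groups overlapped. The changes of -0.30 and -0.24 were not called (adjusted p = 0.484 and 0.582). With the replicate number as a block the adjusted p was 0.0446 at 0.5 nM and 0.0885 at 0.25 nM. COX7B, a small subunit of the ubiquitous enzyme, had levels of 8.22, 8.38 and 8.34 at 0.5 nM, 7.82, 7.80 and 7.91 at 0.25 nM and 8.38, 8.34 and 8.20 in controls. The 0.25 nM arrays lay below all others. It fell by 0.47 there (adjusted p = 0.000382), changed by 0.00 at 0.5 nM (adjusted p = 0.953), and lay 0.47 higher at 0.5 nM than at 0.25 nM (adjusted p = 0.000375).

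COX5A, which binds a thyroid hormone metabolite in the assembled enzyme, had levels of 10.91, 10.90 and 10.90 at 0.5 nM, 11.08, 11.06 and 11.06 at 0.25 nM and 11.13, 11.13 and 11.10 in controls. It fell by 0.22 at 0.5 nM (adjusted p = 2.54e-06) and by 0.05 at 0.25 nM (adjusted p = 0.00760). The second call was lost without replicate 3 of the 0.25 nM group (adjusted p = 0.0549), and unshifted arrays turned it to a rise. COX4I1, the subunit through which ATP inhibits the enzyme, had levels of 11.15, 11.42 and 11.33 at 0.5 nM, 10.93 and 11.27 at 0.25 nM and 11.11, 11.52 and 11.45 in controls. All groups overlapped, and its changes of -0.06 and -0.26 were not called (adjusted p = 0.755 and 0.222). With the replicate number as a block its change at 0.25 nM was -0.23 with an adjusted p of 0.00850.

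COX7A2, the liver type of subunit 7A, was the ubiquitous subunit that rose at both doses. Its levels were 7.90, 7.89 and 7.89 at 0.5 nM, 7.64, 7.64 and 7.62 at 0.25 nM and 7.36, 7.38 and 7.38 in controls. The groups did not overlap, and the 0.5 nM arrays lay highest. It rose by 0.52 at 0.5 nM and by 0.26 at 0.25 nM (adjusted p = 5.27e-09 and 1.61e-07), which is 1.43 and 1.20 times the control signal. Over the group means its rise was 0.39 ± 0.170 (SE), with an unadjusted p of 0.0281 and an adjusted p of 0.645. COX5B, whose protein binds zinc, rose by 0.14 at 0.25 nM (adjusted p = 0.000434) and had a change of 0.02 at 0.5 nM (adjusted p = 0.482).

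COX6A1, the liver type of subunit 6A, fell by 0.11 at 0.5 nM and by 0.15 at 0.25 nM on its brightest row (adjusted p = 2.67e-05 and 6.35e-06). That row is uncertain: all 20 named rows nearest to it in the table belong to genes of chromosome 6, whereas COX6A1 lies on chromosome 12. For the other 28 members the 20 nearest named rows lay on the gene's own chromosome. The other COX6A1 row had a mean level of 3.94 and changes of 0.23 and 0.15. COX7C fell by 0.14 at 0.25 nM (adjusted p = 5.65e-05) and rose by 0.06 at 0.5 nM (adjusted p = 0.00164). COX6C was not called at either dose, with changes of -0.03 and -0.00 (adjusted p = 0.684 and 0.976). COX7A2L, which joins complexes III and IV into supercomplexes, had a level of 6.26 on each control array and fell by 0.11 and 0.16 (adjusted p = 6.81e-05 and 1.70e-05). Without the shift to a common median its changes were -0.0165 and -0.00225, so most of each fall rested on that step.

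For COX8A, UQCRC2 and NDUFAF8 replicate 1 differed from the other replicates by more than the mimic groups differed from control. Replicate 1 stood outside the other measured replicates, and over 0.1 from their mean, in the same direction in all 3 groups for 5 of 29 members. The share over all genes was 6.55%, and the limit of 0.1 was chosen after the values were seen. For COX4I1 and NDUFAF8 replicate 3 at 0.25 nM was left out, so replicate 1 was set against replicate 2 alone there. COX8A in replicate 1 exceeded the mean of the other replicates by 0.98 at 0.5 nM, by 0.68 at 0.25 nM and by 0.65 in controls. UQCRC2 and COX6B1 were also higher in replicate 1, by 0.24 to 0.46. COX4I1 and the complex I assembly factor NDUFAF8 were lower there, with differences of -0.22 to -0.58. With the replicate number as a block 9 members were higher and 14 lower at 0.5 nM, beside 65.7% called, 34.3% higher and 31.4% lower among all genes. At 0.25 nM 6 were higher and 14 lower, beside 67.4% called, 31.3% higher and 36.1% lower among all genes. What a replicate number marks beyond a separate culture is not stated in the labels.

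**Figure D3:**
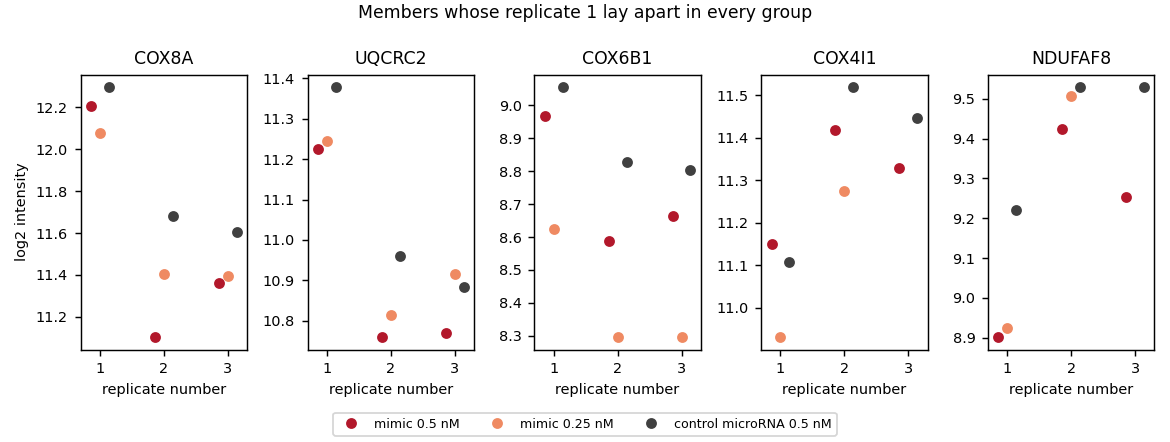
Log2 levels of the members whose replicate 1 stood apart in all 3 groups, by replicate number (horizontal axis), with points coloured by group. COX8A, UQCRC2 and COX6B1 are higher in replicate 1, and COX4I1 and NDUFAF8 are lower there, in mimic and control cells alike.

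The tissue isoforms of complex IV were COX4I2 (lung), COX6A2 and COX7A1 (heart and muscle) and COX6B2, COX7B2 and COX8C (testis). The levels of all 6 were under the median over genes. At 0.5 nM 4 were higher, 1 lower and 1 not called, with a median change of 0.22, beside 33.2% higher and 30.1% lower among all genes. Only 23.8% of genes above the median level were higher at that dose. Genes at low levels, like these isoforms, were thus called higher more often than the 33.2% of all genes. At 0.25 nM 2 were higher, 2 lower and 2 not called, with a median of 0.05, and these shares were near the 30.3% higher and 33.9% lower among all genes.

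COX6A2, the heart and muscle form of subunit 6A, had levels of 5.32, 5.08 and 5.31 at 0.5 nM mimic, 5.42, 5.71 and 5.39 at 0.25 nM mimic and 6.26, 5.74 and 6.25 in controls. All mimic arrays lay below all control arrays, with the nearest control being replicate 2. It fell by 0.85 at 0.5 nM and by 0.58 at 0.25 nM (adjusted p = 0.00282 and 0.0171), which is 0.556 and 0.671 of the control signal. Over the group means it fell by 0.71 ± 0.268 (SE), with an unadjusted p of 0.0118 and an adjusted p of 0.508. The call at 0.25 nM was lost without replicate 1 or 3 of the 0.25 nM group or of the controls (adjusted p = 0.0539 to 0.0684). Over all alternative settings it held in 10 of 16, with a limma adjusted p of up to 0.188.

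No detection calls came with the values, and the levels of these isoforms, like those of the keratinocyte, endothelial and fibroblast markers given above, may lie at background, where a change in signal need not be a change in transcript. Among the testis forms, COX7B2 had levels of 3.87, 3.86 and 3.86 at 0.5 nM, 3.11, 3.10 and 3.10 at 0.25 nM and 3.46, 3.47 and 3.38 in controls, so the mimic groups lay on opposite sides of the control. It rose by 0.43 at 0.5 nM (adjusted p = 2.95e-06) and fell by 0.34 at 0.25 nM (adjusted p = 1.24e-05). COX8C had levels of 3.22, 3.21 and 3.21 at 0.5 nM, 3.76, 4.01 and 3.87 at 0.25 nM and 3.19 on each control array. Its rise of 0.69 was seen at 0.25 nM (adjusted p = 2.13e-05), while at 0.5 nM the change was 0.02 (adjusted p = 0.790). COX6B2 rose by 0.44 at 0.5 nM (adjusted p = 0.000492) and had a change of 0.14 at 0.25 nM (adjusted p = 0.0827). COX7A1 rose by 0.17 and 0.16 (adjusted p = 0.000770 and 0.00111). The lung form COX4I2 rose by 0.27 at 0.5 nM (adjusted p = 0.0193), a call that was lost without control replicate 2 or 3 (adjusted p = 0.0529 and 0.0520), and had a change of -0.03 at 0.25 nM (adjusted p = 0.773).

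Complex V was represented by 2 small membrane subunits and by its inhibitor. ATP5MK, needed for joining ATP synthase into dimers, had levels of 7.60, 7.59 and 7.59 at 0.5 nM, 7.53, 7.61 and 7.61 at 0.25 nM and 7.76 on each control array. All mimic arrays lay below the controls, and it fell by 0.17 and 0.18 (adjusted p = 0.000282 and 0.000189). ATP5MJ fell by 0.22 at 0.25 nM (adjusted p = 0.000728) and had a change of 0.04 at 0.5 nM (adjusted p = 0.375). Without the shift to a common median the changes of ATP5MK were -0.0768 and -0.0215. That of ATP5MJ at 0.25 nM was then -0.0623. Most of both falls at 0.25 nM thus rested on that step. ATP5IF1, the protein that blocks ATP hydrolysis by the enzyme when the membrane potential collapses, had levels of 7.80, 7.79 and 7.79 at 0.5 nM, 7.97 and 7.96 at 0.25 nM and 7.75 on each control array. All mimic arrays lay above the controls, by more at the lower dose. It rose by 0.04 and 0.21 (adjusted p = 0.00566 and 3.54e-06).

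Complex I was represented by 2 assembly factors and 2 noncoding loci, and by no subunit. NDUFAF7, an assembly factor, rose by 0.06 at 0.5 nM (adjusted p = 0.000512) and had a change of 0.00 at 0.25 nM (adjusted p = 0.922). NDUFAF8, which stabilises the assembly factor NDUFAF5, had levels of 8.90, 9.43 and 9.25 at 0.5 nM, 8.92 and 9.51 at 0.25 nM and 9.22, 9.53 and 9.53 in controls. The groups overlapped, and its changes of -0.23 and -0.21 were not called (adjusted p = 0.368 and 0.460). With the replicate number as a block the adjusted p was 0.0332 at 0.5 nM and 0.0820 at 0.25 nM.

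NDUFB2-AS1, an antisense RNA at the locus of a complex I subunit, had levels of 6.59, 6.58 and 6.58 at 0.5 nM, 5.84 and 5.93 at 0.25 nM and 6.69 on each control array. The 0.25 nM arrays lay far below the rest. It fell by 0.81 at 0.25 nM (adjusted p = 5.41e-07), to 0.572 of the control signal, and by 0.11 at 0.5 nM (adjusted p = 0.00506). NDUFA6-DT, transcribed divergently from the NDUFA6 promoter, rose by 0.13 and 0.22 (adjusted p = 0.00773 and 0.00108) on its brighter row. The strand that the probes read is not stated in the labels, and signal from a gene and from its antisense partner cannot be told apart.

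Between the doses, 12 of 29 members were higher and 5 lower at 0.5 nM than at 0.25 nM, beside 62.2% called, 35.0% higher and 27.2% lower among all genes. With the replicate number as a block 14 were higher and 5 lower, beside 65.4% called, 36.9% higher and 28.5% lower. The widest gaps were 0.76 for COX7B2 (adjusted p = 1.19e-07), 0.69 for NDUFB2-AS1 (adjusted p = 1.14e-06), -0.67 for COX8C and 0.47 for COX7B. COX7B2 and COX8C are the testis forms whose levels may lie at background, and NDUFB2-AS1 is noncoding. Differences that were called between the doses only with the replicate number as a block were 0.33 for COX6B1 (adjusted p = 0.0666 without and 0.000406 with it) and 0.20 for COX4I1 (adjusted p = 0.345 without and 0.0221 with it). Among the ubiquitous subunits COX7A2 lay 0.26 higher at 0.5 nM and COX5A 0.17 lower. The step in dose also separated arrays whose medians before the shift differed, as given above.

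Genes that build or feed the chain, from lists kept apart from the members, moved in both directions too. Their changes were taken after the shift to a common median, without which they were higher by about 0.09 at 0.5 nM and 0.16 at 0.25 nM. The direction of smaller falls thus rested on that step. The counts below stand beside 33.2% higher and 30.1% lower at 0.5 nM and 30.3% higher and 33.9% lower at 0.25 nM among all genes, and most of these lists are too short for a share to be read against that. Of 8 measured complex I assembly factors outside the rule 3 were higher and 2 lower at 0.5 nM, and 2 higher and 3 lower at 0.25 nM. DMAC2 fell by 0.51 and 0.76 (adjusted p = 0.00488 and 0.00136; group-level adjusted p = 0.0604), and FOXRED1 rose by 0.59 and 0.66 (adjusted p = 2.24e-05 and 1.12e-05). Of 9 assembly factors of complexes II and III 1 was higher and 4 lower at each dose, with medians of -0.16 and -0.17. SDHAF3 fell by 0.32 and 0.28, and SDHAF4 rose by 0.56 and 0.35. Of 21 complex IV assembly factors 5 were higher and 7 lower at 0.5 nM, and 6 higher and 6 lower at 0.25 nM. PET117 fell by 0.31 and 0.36, and SCO2, a copper chaperone, rose by 0.29 and 0.36. Of 5 ATP synthase assembly factors 4 were lower and 0 higher at each dose, ATPAF2 falling by 0.51 and 0.21.

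The holocytochrome c synthase HCCS, which attaches haem to cytochrome c, fell by 0.23 and 0.24 (adjusted p = 0.0155 and 0.0133). The complex III subunit CYC1, whose symbol lies outside the rule, fell by 0.28 at 0.25 nM (adjusted p = 0.00332) and had a change of -0.05 at 0.5 nM (adjusted p = 0.496). Of 11 measured tricarboxylic acid cycle genes 1 was higher and 7 lower at 0.5 nM, and 1 higher and 4 lower at 0.25 nM, with medians of -0.17 and -0.07. IDH3B fell by 0.22 and 0.37 there, and PDHB of the pyruvate dehydrogenase complex rose by 0.11 and 0.20. Of 9 glycolysis genes 1 was higher and 5 lower at 0.5 nM, and 1 higher and 6 lower at 0.25 nM, with medians of -0.10 and -0.14. TPI1 fell by 0.35 and 0.36. The glycolytic list had medians close to those of the respiratory members, and no difference between the lists was tested.

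Measured genes listed as regulators of mitochondrial biogenesis numbered 6 (NRF1, ESRRA, ESRRG, YY1, POLRMT and TWNK). Of these 4 were lower at 0.5 nM and 6 at 0.25 nM, 0 being higher, with medians of -0.17 and -0.27. ESRRG had a level of 4.53 and may lie at background. The nuclear receptor ESRRA, which activates respiratory genes, fell by 0.28 and 0.42 (adjusted p = 0.00561 and 0.00160). The mitochondrial RNA polymerase POLRMT fell by 0.07 at each dose, less than changes rose when the shift to a common median was left out. MITF fell by 0.22 and 0.17 (adjusted p = 3.06e-07 and 1.45e-06), but SOX10 rose by 0.32 and 0.11 (adjusted p = 2.28e-06 and 0.000964), and of the 9 melanocyte markers 2 were higher and 3 lower at 0.5 nM and 2 higher and 4 lower at 0.25 nM. The list labelled inner membrane carriers and potential held 6 measured genes, VDAC1, VDAC2, VDAC3, PHB1, PHB2 and CHCHD3, and no inner membrane carrier. Of them 2 were lower at 0.5 nM and 3 at 0.25 nM, and 0 were higher. With the replicate number as a block 3 were lower and 1 higher at 0.5 nM, and 5 were lower at 0.25 nM. CHCHD3, a cristae organiser placed in that list, fell by 1.07 and 0.54 (adjusted p = 1.97e-09 and 4.39e-08), with a group-level adjusted p of 0.131. Of 4 ubiquinone synthesis genes 0 were called at 0.5 nM, and 1 was higher (COQ8A, by 0.33) and 1 lower at 0.25 nM. Of 3 organisers of the inner membrane 1 was lower at 0.5 nM and 0 were called at 0.25 nM, STOML2 falling by 0.12 at 0.5 nM. By the group-level limma test 0 genes of these lists passed.

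**Figure D4:**
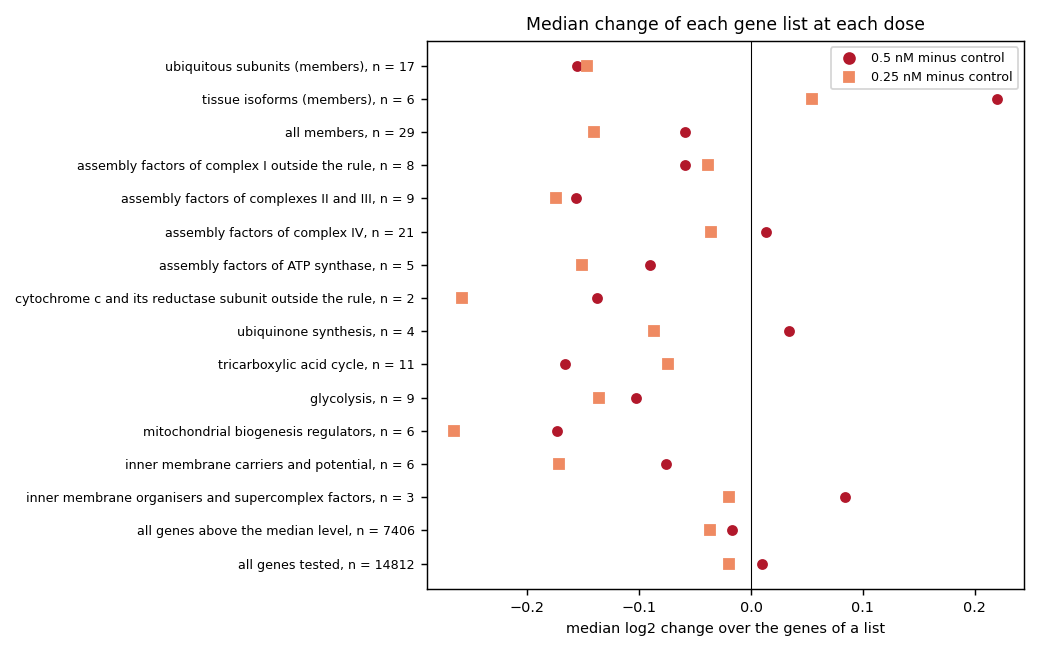
Median change from control in log2 units for the members and for each list of related genes at 0.5 nM and 0.25 nM mimic. Most medians lie between -0.27 and 0.08, with those of the biogenesis regulators lowest.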

How the data were processed

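WM266-4 GFP cells were profiled on 9 whole-transcript arrays, 3 per group. The deposited log2 values were made by the authors with robust multi-array averaging, and the submitters' processing notes name oligo and affy; their versions and the genome build are not stated there. Gene names came from the platform annotation and were updated to RefSeq symbols by gene ID, which matched for all 15835 rows with 1 symbol. For 0.25 nM mimic, replicate 3, zeros after the decimal point were lost, so values written with fewer than 10 digits were left out. Arrays were shifted to 1 median. R 4.3.3 and limma 3.58.1 tested 14812 genes with Benjamini-Hochberg adjustment at 0.05, first over arrays (empirical Bayes) and then over the 3 group means (limma-trend). Both were tested on simulated data. Same-numbered replicates deviated together (r of 0.136 to 0.589 over 11978 genes in all 9 pairs), so the block was run as an alternative. It is printed where it changes the call of a member. Counts of the related lists are without the block unless named, and it changed some of them. Alternatives were no shift, quantile normalisation, the values as deposited, mean of rows, genes above the median level and leaving arrays out.

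Members and lists were chosen with earlier results of these data known. Named with values were the 6 members with the lowest and the 6 with the highest mean change, the 4 with the widest gap between doses, members listed for their roles, and the extremes of each related list; the remainder were named as results turned on them. Promoter motifs were searched in RefSeq windows of GRCh38.p14. Array number limits the precision.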

Additional observations from a re-analysis of the deposited data

Results flagged for a closer look

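A pair of results stood out because their effects differed between the mimic doses. COX7B2, the testis form of subunit 7B, was called higher than control at 0.5 nM and lower at 0.25 nM, and its level was 0.76 higher at 0.5 nM than at 0.25 nM (limma adjusted p = 1.19e-07). Its levels of 3.10 to 3.87 lay among those of markers of cell types other than melanocytes, and may be background signal. COX7C, a ubiquitous subunit, was called in the same opposite directions, with a difference between doses of 0.20 (limma adjusted p = 8.64e-06). For COX7C the levels were 8.40, 8.38 and 8.38 at 0.5 nM, 8.19 and 8.18 at 0.25 nM and 8.33, 8.33 and 8.32 in controls. Without the shift to a common median the change of COX7C at 0.25 nM was 0.0139 (adjusted p = 0.0160), so its reversal rested on that step. Among all genes 12.5% were called in opposite directions.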

How the results depend on the processing

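The group-level limma test called 0 members in every setting run, while over all genes it called 0 to 47. Of 58 values of a member at a dose 38 were called by array-level limma, and 18 of these kept direction and call in every setting. The lost calls named above gene by gene are mostly those with 1 array left out, and other settings lost further calls. The median change over members turned to 0.0306 at 0.5 nM and 0.0139 at 0.25 nM without the shift; members were then 11 higher and 6 lower at 0.5 nM, 10 higher and 4 lower at 0.25 nM, and 9 higher and 9 lower between the doses, beside 45.0% and 20.1%, 50.7% and 17.1%, and 26.7% and 35.9% of all genes. The median was -0.0890 at 0.25 nM with quantile normalisation, -0.0359 and -0.125 at 0.5 and 0.25 nM with the mean of rows, -0.108 and -0.0875 without replicate number 1 in any group (added after seeing the data), -0.114 at 0.5 nM over genes above the median level, and -0.155 at 0.5 nM over the ubiquitous subunits (also added afterwards). With 1 array left out it ran from -0.0875 to -0.0282 at 0.5 nM and from -0.146 to -0.0875 at 0.25 nM. Genes above the median level gave 11 called members at 0.5 nM and 11 between doses. With the replicate number as a block 23 members were called at 0.5 nM, 20 at 0.25 nM and 19 between doses.

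Without the shift, at 0.25 nM, COX5A changed by 0.10, COX6A1 by 0.0104, COX7C by 0.0139 and UQCRHL by 0.0535. With the mean of rows COX6A1 changed by 0.0567 at 0.5 nM and by 0.00412 at 0.25 nM. Without replicate number 1, COX5B changed by -0.00947 at 0.5 nM and NDUFAF7 by -0.00454 at 0.25 nM. The cause was not tested. Identical values within groups leave array-level p-values too small.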

Other observations

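The pseudogene UQCRBP1 had levels of 4.08, 3.80 and 3.75 at 0.5 nM mimic, 5.21, 5.32 and 5.30 at 0.25 nM mimic and 4.96, 4.59 and 4.59 in controls. The 0.5 nM arrays lay below and the 0.25 nM arrays above the controls, with changes of -0.84 and 0.56. It is a copy of UQCRB, whose own row fell by 0.35 at 0.5 nM and had a change of -0.23 at 0.25 nM that was not called. The dimmer row of NDUFA6-DT had a mean level of 5.15 and changes of 0.00 at 0.5 nM and 0.15 at 0.25 nM, against 0.13 and 0.22 on its brighter row.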
